A study of Mus musculus with 8 samples.

Results

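The genes described here are those whose 4 treated libraries all lay on 1 side of the 3 control libraries in mouse leukaemia cells carrying a switchable hairpin against Tet2. Treated means either that the hairpin's inducer had been withdrawn (2 mice) or that ascorbate had been given (2 mice), and control means sustained knockdown with PBS (3 mice). A gene was taken when its 4 treated levels, in read counts scaled to CPM on totals scaled by TMM (trimmed mean of M values), all lay above or all lay below the 3 control levels. Of 52459 genes deposited, 11694 passed a filter on low counts, and 2857 of those (24.4%) met the rule, 1430 higher (12.2%) and 1427 lower (12.2%). Since the members were chosen by these same CPM values, the difference between treated and control libraries is given as a description and without a test. The filter could favour genes that are high in 1 group only: 50 higher and 22 lower genes had a low group wholly under its cutoff of 0.416 CPM. Over all deposited genes the rule found 1745 higher and 1630 lower.

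Every library came from spleen leukaemia cells of 1 moribund mouse with the genotype given as RTA shTet2, and all descend from cKit+ marrow of C57BL/6J mice that received a retrovirus with AE9a and a doxycycline (DOX) inducible hairpin against Tet2. For the first transplant, irradiated C57BL/6J recipients of 6 to 8 weeks received 50000 AE9a+ cells and 500000 wild-type support marrow cells on a DOX diet, and the same cell numbers were passed on to secondary recipients. The control group is Tet2 knockdown with DOX and PBS in secondary recipients (mice 16, 17 and 19). The treated groups are the libraries labelled Tet2-restored, without DOX and with PBS (mice 21 and 23), and ascorbate with DOX (mice 28 and 30). A primary recipient on DOX (mouse 12) was not used by the rule and is cited as a value with no replicate. Withdrawal of DOX and any return of Tet2 fall in the same mice and cannot be told apart, wild-type support marrow was transplanted with the leukaemia, and the labels do not say how many independent leukaemias the secondary mice received. The samples are separate mice.

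AE9a is a short splice form of the fusion protein made by the translocation of the RUNX1 and RUNX1T1 genes in acute myeloid leukaemia. It keeps the DNA-binding part of RUNX1 joined to a corepressor-binding partner. TET2 oxidises 5-methylcytosine in DNA, a step towards loss of the methyl mark, and is often mutated in myeloid disease. Ascorbate is a cofactor that keeps the iron of TET enzymes reduced, and it serves many other iron-dependent dioxygenases, among them the prolyl hydroxylases that mark the hypoxia factors HIF for degradation and the enzymes that mature collagen.

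Depth ran from 18.1 to 34.2 M counts. Mitochondrial genes took 9.09% to 11.4% of counts in the control mice, 9.49% and 9.73% in mice 21 and 30, and 14.5% and 17.1% in mice 23 and 28. Libraries also differed in a trend with transcript length: the rank correlation across genes between length and the deviation from the 7-library mean stood at 0.40, 0.017 and 0.27 for the controls (mice 16, 17, 19), at −0.41 and −0.21 for mice 21 and 23, and at −0.23 and 0.096 for the ascorbate pair, mice 28 and 30. Where such a trend touches a result, the value with a length offset per library (a smooth curve of that deviation on length, removed from each library) is given beside it. Checked against markers, the cells expressed Kit (54.0 to 153 CPM), Myb (178 to 419 CPM) and the erythroid and mast cell factor Gata1 (255 to 331 CPM). Mpo (0.081 to 1.64 CPM), Cd34 (0 to 2.71 CPM) and Cd33 (0.125 to 0.456 CPM), which mark myeloid blasts, were near 0, and the haemoglobin chain Hbb-bs stood at 3503 to 9287 CPM. The label names AE9a+ leukaemic cells and no lineage.

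Sizes were moderate for most of the 2857 genes. The median log2 fold change, treated minus control, was 0.56 in the higher genes (quartiles 0.39 and 0.87) and −0.63 in the lower ones (quartiles −0.88 and −0.45), and 538 of them (18.8%) passed 2-fold, against 8.11% of all tested genes. The gap between the nearest treated and the nearest control library was small, with a median of 0.13 log2 units in the higher and −0.15 in the lower genes, and 400 higher and 435 lower genes had a gap of at least 0.25. Fitted with the quasi-likelihood test of edgeR, 198 genes (1.69% of those tested) passed an adjusted p of 0.05 in the pooled contrast, 94 higher (0.804%) and 104 lower (0.889%), and all 198 were among the 2857. The contrast is the one the rule used, so this overlap and the larger share of members past 2-fold are largely built in. The count of 198 is a description only, and it hung on single libraries. It was 0 without mouse 16, 17, 19 or 23 in turn (1716 to 3022 genes at an unadjusted p under 0.05). It was 4 without mouse 28, 813 without mouse 21 and 1226 without mouse 30. Against the shared controls the median was 0.58 (labelled Tet2-restored) and 0.52 (ascorbate) in the higher genes and −0.63 and −0.63 in the lower ones. The rule itself puts both groups on the same side, so nothing is read from these medians.

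Which library sat closest to the other group was uneven. Among higher genes, mouse 30 was the nearest treated library for 40.6% and mouse 21 for 39.2%, and among lower genes these shares were 39.0% and 42.2%. At the far end, mouse 23 was the most displaced treated library for 55.0% of higher and 47.6% of lower genes, and mouse 28 for 27.0% and 30.4%. These are the 2 libraries with the highest mitochondrial share, and the part of that share in the result was not tested. On the control side mouse 17 was nearest for 57.5% of higher and 58.2% of lower genes. Leaving out a library relaxes the rule by construction. Without mouse 17 the rule took 2310 higher and 2257 lower of 12051 genes, and without mouse 30 2113 and 2248 of 11555. The counts were 1649 and 1689 of 12046 without mouse 16, and 1733 and 1768 of 11997 without mouse 19. They were 1987 and 2015 of 11528 without mouse 21, and 1674 and 1627 of 11569 without mouse 23. List counts given below with a library left out stand beside these larger counts, not beside 12.2%. Without mice 23 and 28 together the counts were 1953 and 1959, of which 1373 and 1412 were in the original sets.

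Transcript length separated the higher from the lower genes. The median length, recovered from the ratio of deposited counts to deposited FPKM (fragments per kilobase of transcript, scaled to depth), was 2787 bases in higher genes, 5647 bases in lower genes and 3886 bases in all tested genes. In the shortest 10% of tested genes 18.7% were higher and 1.37% lower, and in the longest 10% 4.53% were higher and 23.2% lower. With the length offset the shares ran from 9.91% to 14.2% for higher and from 7.09% to 12.3% for lower genes across the 10 length classes. Under the offset the rule took 1478 higher and 1192 lower genes, of which 1093 and 971 were in the original sets, so 2064 of the 2857 genes met the rule on the same side under both scalings. Of 1430 higher genes 83.8% were protein-coding, of 1427 lower genes 94.8%, against 87.0% of all tested genes. The median deposited FPKM in the controls was 11.1 for higher and 7.25 for lower genes, and 7.06 for all tested genes.

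**Figure D1:**
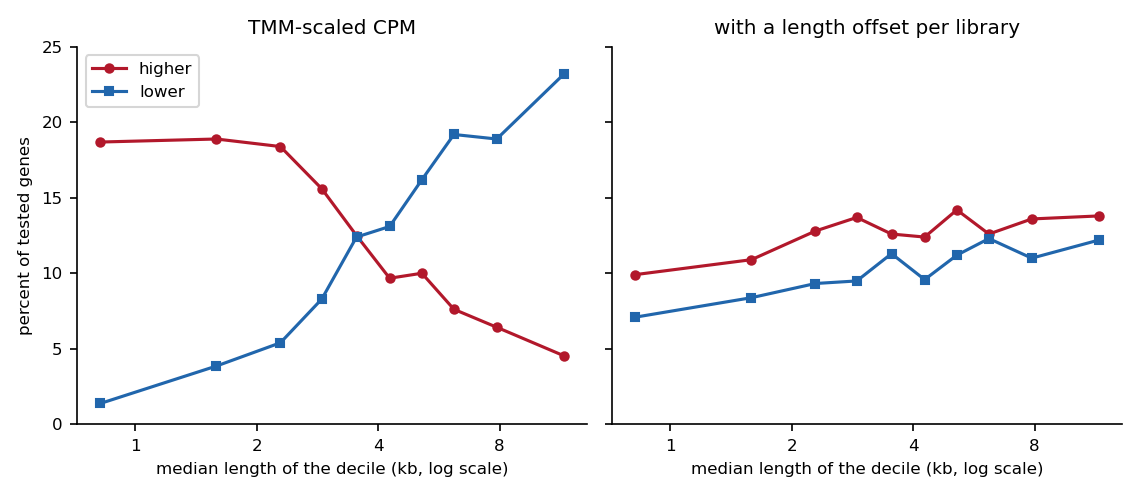
Percent of tested genes (y axis) that were higher or lower in all 4 treated libraries, by class of transcript length (10 classes of equal size) (x axis, median length in kb, log scale), with TMM-scaled CPM (left) and with a length offset per library (right). On the left the higher share runs from 18.7% in the shortest class to 4.53% in the longest and the lower share from 1.37% to 23.2%, and on the right both stay between 7.09% and 14.2%.

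The largest separations among higher genes belonged to genes of quite different function. Tnni3, the cardiac troponin I gene (chromosome 7, 4518305 to 4524229, minus strand, GRCm38), stood at 10.2, 1.75 and 20.2 CPM in mice 16, 17 and 19, at 89.0 and 84.8 CPM in mice 21 and 23, and at 157 and 117 CPM in mice 28 and 30. The lowest treated library was far above the highest control, the control libraries themselves were spread widely, and the primary library, at 12.4 CPM, lay among the controls. The log2 fold change was 3.38 (SE 0.66), a 10.4-fold difference of means. Rapsn, which anchors acetylcholine receptors in muscle, stood at 0.324, 0.407 and 1.14 CPM in the controls, 2.95 and 2.99 CPM in the mice labelled Tet2-restored and 9.96 and 4.33 CPM under ascorbate (2.99, SE 0.61). Both mice without DOX were lower than both ascorbate mice. Spns2, an exporter of sphingosine-1-phosphate, stood at 0.081, 0.529 and 1 CPM in the controls, 1.76 and 11.1 CPM in mice 21 and 23, and 6.46 and 2.75 CPM in mice 28 and 30 (3.33, SE 0.81). Its 2 highest values were those of mice 23 and 28.

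Several of the higher genes encode secreted or immune proteins. Lat2, an adaptor of mast cell and B cell receptor signalling, stood at 0.648, 1.10 and 1.61 CPM in the controls, 4.80 and 13.3 CPM in mice 21 and 23, and 3.80 and 5.70 CPM in mice 28 and 30 (2.62, SE 0.52). Fn1, which encodes fibronectin of the extracellular matrix, stood at 1.82, 1.42 and 2.11 CPM against 7.18, 5.27, 4.59 and 9.95 CPM (1.92, SE 0.36). In CPM, every treated library was at least as far from the controls as the controls were from each other, in both genes. On the log2 scale this did not hold for Lat2. Ccl17, a chemokine for CCR4-bearing T cells, stood at 2.79, 3.17 and 3.21 CPM against 6.11, 9.23, 9.18 and 6.54 CPM (1.34, SE 0.28, and 0.99 with the length offset). Lgals7, a galectin best known from epithelia (chromosome 7, 28863853 to 28866284), stood at 13.8, 18.7 and 20.3 CPM against 38.5, 61.1, 63.3 and 64.6 CPM (1.69, SE 0.22). Mouse 21 was the lowest treated library in both genes, and the primary library, at 2.22 CPM for Ccl17 and 7.86 CPM for Lgals7, was below all controls.

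The other higher genes with a large gap were Ccdc180, a coiled-coil protein gene (3.06, SE 0.67), the homeobox gene Hoxb3 (1.61, SE 0.31), Prelid3a, a gene of the PRELI family of mitochondrial lipid carriers (1.02, SE 0.23), and Prtn3 and Cpa3, which are described with the granule genes below. Hoxb3 stood at 1.66, 1.71 and 2 CPM against 3.78, 5.58, 5.80 and 6.79 CPM, so the groups were separate with little spread among the controls. Tnni3, Rapsn, Lat2, Fn1, Prtn3, Hoxb3 and Spns2 share exonic bases with an annotated neighbour. The strand setting of the counting is not given in the sources used here, so reads of such pairs cannot be told apart.

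Among lower genes Vcam1, the adhesion receptor by which macrophages and endothelium hold blood cells (chromosome 3, 116109949 to 116129688, minus strand), had the largest gap of the 12 named by gap. It stood at 10.4, 14.0 and 15.4 CPM in the controls, 2.38 and 0.963 CPM in mice 21 and 23, and 2.17 and 1.37 CPM in mice 28 and 30, a log2 fold change of −2.94 (SE 0.34). All 4 treated libraries were under the primary library as well, which had 5.34 CPM. Hmox1, haem oxygenase 1, which breaks haem down to iron, carbon monoxide and biliverdin, stood at 5.67, 7.08 and 8.10 CPM against 2.46, 1.47, 2.29 and 2.54 CPM (−1.66, SE 0.30). Slc40a1, the iron exporter ferroportin, stood at 90.9, 41.2 and 47.9 CPM against 21.5, 4.16, 17.3 and 21.0 CPM (−1.90, SE 0.48). In both genes mouse 23 was the lowest of all and the other 3 treated libraries lay close together. These 3 genes are highly expressed in splenic red pulp macrophages, and 2 of them handle recycled iron.

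Further lower genes serve signalling, ubiquitin and chromatin. Arhgap35, a GTPase-activating protein, stood at 16.5, 8.18 and 8.43 CPM against 1.40, 2.53, 1.57 and 2.12 CPM (−2.53, SE 0.35), and the primary library, at 30.9 CPM, lay above all others. Kbtbd8, an adaptor of a cullin 3 ubiquitin ligase, stood at 17.7, 12.2 and 15.2 CPM against 5.99, 5.27, 3.50 and 4.75 CPM (−1.62, SE 0.25). The highest treated value was 2.53 CPM for Arhgap35 and 5.99 CPM for Kbtbd8, against lowest control values of 8.18 and 12.2 CPM. Shprh, a ubiquitin ligase of replication-damage tolerance, stood at 64.9, 43.1 and 50.1 CPM against 25.2, 16.6, 17.6 and 21.5 CPM (−1.38, SE 0.20, and −1.05 with the length offset). Ylpm1, a nuclear protein gene with a long transcript (chromosome 12, 84996321 to 85070515), stood at 173, 135 and 150 CPM against 77.9, 73.8, 67.4 and 79.8 CPM (−1.03, SE 0.14, and −0.78 with the offset). The spread among its 4 treated libraries was smaller than that among the controls. Zfp719, a zinc finger gene (−2.40, SE 0.50), Ubxn2b, a cofactor of the p97 segregase (−1.72, SE 0.29), Thap2 (−1.75, SE 0.31), Fam212b (−1.90, SE 0.33) and Tcf23, a bHLH gene (−1.61, SE 0.37), completed the 12 lower genes. Of the 24, Vcam1 and Shprh on the lower side share exonic bases with a neighbour.

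**Figure D2:**
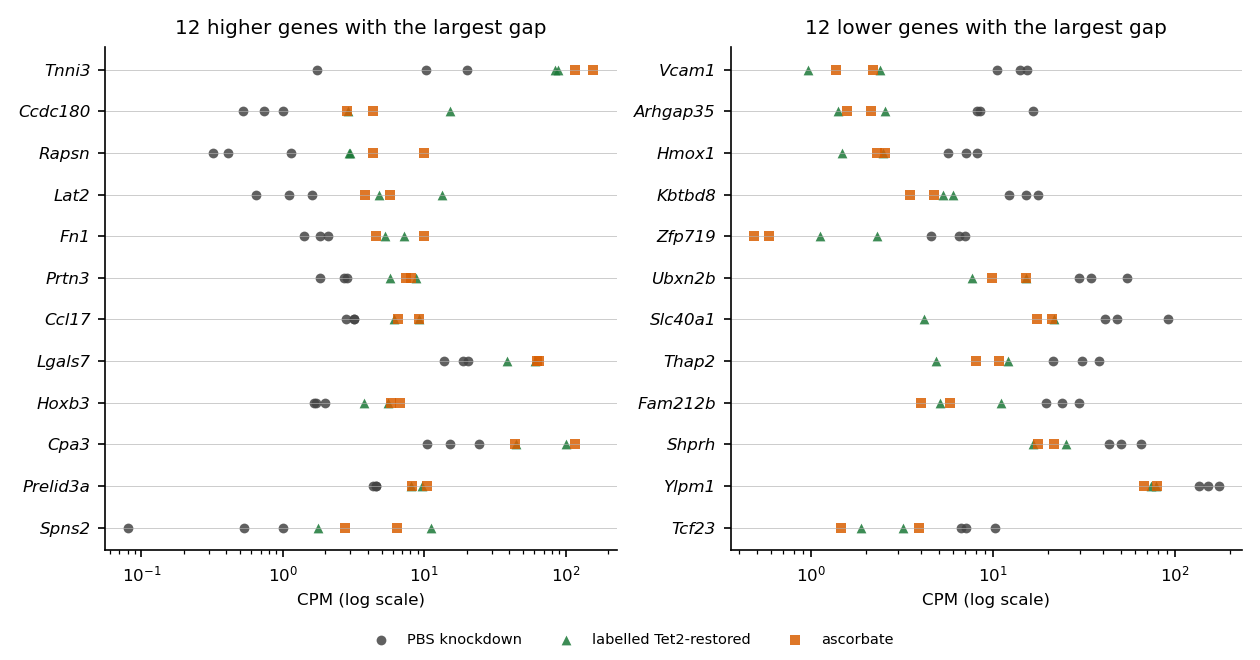
CPM (x axis, log scale) of the 12 higher (left) and 12 lower (right) genes with the largest gap, 1 symbol per library: PBS knockdown (3 mice), labelled Tet2-restored (2 mice) and ascorbate (2 mice). In each row the 4 treated symbols lie on 1 side of the 3 control symbols, as the rule requires, and the green and orange symbols intermingle in most rows.

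Tet2 itself did not meet the rule. It stood at 12.6, 12.7 and 13.4 CPM in the controls, 14.0 CPM (95% Poisson interval 12.6 to 15.6) and 23.2 CPM (21.1 to 25.4) in mice 21 and 23, and 13.6 and 11.7 CPM in mice 28 and 30. Only mouse 23 stood clear of the controls. On this scale the level in the library labelled Tet2-restored from mouse 21 does not bear out its label, and directions drawn from that group rest partly on it. The recovered Tet2 transcript is long (16851 bases), and its pooled log2 fold change of 0.28 (SE 0.25) was 0.64 with the length offset. Tet2 met the rule under neither scaling, and its levels in single libraries with the offset are not given. The intervals cover counting error only. Tet1 had 0 counts in all 7 secondary libraries, which allows up to 0.107 to 0.181 CPM. Tet3, the third family member, met the rule as lower, at 109, 87.9 and 98.9 CPM against 66.7, 78.6, 61.5 and 70.8 CPM. Its log2 fold change of −0.51 (SE 0.14) was −0.16 with the length offset, under which it no longer met the rule.

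Both fusion partners were on the higher side. Runx1 stood at 232, 197 and 229 CPM against 280, 308, 290 and 279 CPM (0.40, SE 0.12, and 0.69 with the length offset). Runx1t1, whose product recruits corepressors, stood at 108, 100 and 105 CPM against 154, 305, 133 and 129 CPM (0.79, SE 0.28). Mouse 23 was far above the other treated libraries, and the primary library on DOX had 188 CPM. Reads of the AE9a transgene cannot be separated from those of the endogenous genes in these counts. The list of 16 tested TET and DNA methylation genes had a median log2 fold change of 0.10, against 0.00 over all tested genes. Of these genes 4 were lower (25%, against 12.2% of all tested genes) and 0 higher. Beside Tet3 these were Uhrf1, which guides the maintenance methylase to replicated DNA (207, 212 and 199 CPM against 161, 116, 135 and 191 CPM), that methylase Dnmt1, and Ogt, a glycosyltransferase and TET partner. None of these 4 was lower with the length offset, under which 1 other gene of the list was.

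Macrophage genes were the clearest lower group of another cell type. Of 25 tested macrophage and monocyte genes 8 were lower (32.0%, against 12.2% of all tested genes) and 0 higher, and the list's median log2 fold change was −1.07, also with the length offset. Beside Vcam1, Hmox1 and Slc40a1 they were Mertk, a receptor for the uptake of dying cells (1.09, 1.22 and 1.32 CPM against 0.123, 0.254, 0.121 and 0.167 CPM, −2.83, SE 0.43), the complement chain C1qa, the secreted scavenger Cd5l, the mannose receptor Mrc1 and Spic, the transcription factor of red pulp macrophages. The summed level of the 30 marker genes was 182 to 232 CPM in the controls and 54.0 to 111 CPM in the treated libraries, so the ranges did not overlap. The sum includes the 8 lower genes, which the rule chose for such a separation, so the distance is partly built in. Slc40a1 alone gave 90.9 of the 184 CPM in mouse 16. Without mouse 16 the lower count was 16, and over all tested genes it was 1689 of 12046. In bulk RNA, fewer cells of a type and less RNA per cell cannot be told apart, here and in every other list. Splenic cells were taken as AE9a+ cells, per the labels, and the part of admixed macrophages in the lower genes was not tested.

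Of 14 tested B and plasma cell genes 4 were lower (28.6%, against 12.2% of all tested genes) and 0 higher (median −0.68): Fcmr, the receptor for IgM, the adaptor Blnk, the inhibitory receptor Cd22, and Xbp1, a factor of secretory cells that many cell types express. Xbp1 stood at 165, 151 and 146 CPM against 133, 69.3, 89.6 and 87.5 CPM (−0.70, SE 0.20). The marker sum of this list was 206 to 212 CPM in the controls and 83.5 to 196 CPM in the treated libraries, and 8 genes were lower without mouse 21. Of 27 erythroid genes 6 were lower (22.2%) and 0 higher (median −0.36, and −0.51 with the offset), among them Ermap, a red cell surface protein (684, 502 and 493 CPM against 339, 213, 386 and 380 CPM) and the nuclear protein Hemgn (171, 171 and 120 CPM against 94.8, 31.6, 56.9 and 96.2 CPM). In both mouse 23 was the lowest library. Others were Klf1, the main erythroid activator, and the skeleton genes Ank1 and Sptb. The erythroid list means of mice 21 and 28 (−0.13 and −0.32) lay above that of control mouse 19 (−0.40). The summed level of the list overlapped, at 13557 to 24089 CPM in the controls and 14794 to 21442 CPM in the treated libraries, and 13 genes were lower without mouse 19 and 11 without mouse 21.

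Granule genes of mast cells and basophils stood on the higher side. Of 16 tested genes 7 were higher (43.8%, against 12.2% of all tested genes) and 0 lower, with a median log2 fold change of 1.08 (0.99 with the length offset). Cpa3, the carboxypeptidase of mast cell granules, stood at 10.5, 24.4 and 15.2 CPM against 102, 44.8, 43.8 and 117 CPM (2.20, SE 0.43). The primary library had 203 CPM, above all 7, and the largest treated values were those of mice 21 and 30, not of mice 23 and 28. Cma1, mast cell chymase, stood at 13.0, 12.3 and 17.0 CPM against 32.7, 38.9, 24.8 and 48.9 CPM (1.36, SE 0.24). Il4, the cytokine that mast cells and basophils release, stood at 7.85, 8.63 and 8.32 CPM against 17.4, 14.7, 16.1 and 15.5 CPM (0.95, SE 0.19, and 0.73 with the offset). Within both groups Il4 varied little, and the nearest values were 8.63 and 14.7 CPM.

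The other 4 higher genes of the list were the IgE receptor chain Fcer1a, the histamine-forming enzyme Hdc, the amine transporter Slc18a2 and the cytokine Il13. Fcer1a stood at 33.6, 65.7 and 50.2 CPM against 225, 355, 151 and 93.8 CPM. The summed level of the 24 markers overlapped, at 2538 to 3282 CPM in the controls and 3155 to 4435 CPM in the treated libraries, and Tpsb2, Tpsg1, Prg3 and Epx were at 0 in all 7. Without mice 23 and 28, 14 of the list's genes were higher. Prtn3, the neutrophil serine protease proteinase 3, stood at 1.82, 2.85 and 2.71 CPM against 5.70, 8.82, 8.09 and 7.50 CPM (1.61, SE 0.30), and Hp, haptoglobin, stood at 0.202, 0.529 and 0.571 CPM against 1.40, 1.01, 1.27 and 1.75 CPM. They were the 2 higher genes of 6 tested primary granule genes (33.3%, against 12.2% of all tested genes, median 0.83). Cd177 and S100a6 were the 2 higher of 13 late granule genes (15.4%, near that share, median 1.21). The list mean of control mouse 17 lay above that of mouse 28 for primary granules (0.33 and 0.27). It also lay above that of mouse 21 for late granules (1.16 and 1.11). Without mouse 17, 8 late granule genes were higher, and so were 2310 of all 12051 tested genes. The marker sums were 39.9 to 81.2 CPM in the controls and 45.8 to 203 CPM in the treated libraries for primary granules, and 98.5 to 120 CPM and 114 to 154 CPM for late granules.

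Other spleen cell types had few members. Of 8 tested megakaryocyte genes F2rl2 and Itga2b were higher (25%, against 12.2% of all tested genes). Of 3 tested T and NK cell genes Lck was lower (33.3%), and of 4 tested endothelial and stromal genes Col1a1 was lower (25%). Lists this short give coarse shares. The T and NK marker sum was 20.1 to 25.3 CPM in the controls and 24.3 to 32.9 CPM in the treated libraries. For endothelium and stroma it was 77.6 to 102 CPM against 109 to 153 CPM, ranges that did not overlap, with 10 of 23 defining genes, among them Cldn5 and Pdgfra, at 0 in all 7 libraries.

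Genes of homologous recombination and the Fanconi anaemia pathway, which repair double-strand breaks and crosslinks with a sister copy as template, held the largest lower share of any list with at least 10 tested genes. Of 40 tested genes 22 were lower (55.0%, against 12.2% of all tested genes) and 0 higher, with a median log2 fold change of −0.62. With the length offset 17 were lower and 1 higher and the median was −0.44, and 13 were lower under both scalings. Slx4, the scaffold that holds structure-specific nucleases (chromosome 16, 3979105 to 4003770, minus strand), stood at 44.0, 34.6 and 38.2 CPM in the controls, 22.9 and 17.3 CPM in mice 21 and 23, and 10.7 and 11.4 CPM in mice 28 and 30 (−1.32, SE 0.26, and −1.10 with the offset). Both ascorbate mice lay below both mice labelled Tet2-restored. Topbp1, which activates the ATR checkpoint kinase at stalled forks (chromosome 9, 103305215 to 103350428), stood at 246, 185 and 196 CPM against 89.3, 70.2, 95 and 128 CPM (−1.13, SE 0.20). Fancm, the translocase that brings the Fanconi core complex to blocked forks, stood at 39.3, 28.8 and 29.9 CPM against 12.6, 9.58, 11.2 and 19.9 CPM (−1.29, SE 0.25). In these 2 genes mouse 23 was lowest and mouse 30 the nearest to the controls.

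Other lower genes of the list span the pathway. They include the break sensor kinase Atm and its partners Mre11a and Rad50, the mediators Brca1, Bard1, Palb2, Brca2 and Brip1, the recombination proteins Rad51c, Rad52, Rad54b and Rad54l, the helicase Blm with the nucleases Exo1 and Gen1, and Fanca, Fancg and Fanci. The list's mean log2 CPM relative to the controls' mean was −0.36 and −0.85 in mice 21 and 23 and −0.66 and −0.42 in mice 28 and 30, and 0.14, −0.084 and −0.054 in mice 16, 17 and 19, so every treated library was below every control. The mean includes the 22 genes that the rule chose for lying below, so this order is partly built in. The long transcripts of these genes and the length trend move together, and the offset leaves the values given above.

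Other repair lists were mixed. Of 15 end joining genes 3 were lower (20%, against 12.2% of all tested genes) and 1 was higher (6.67%). The higher one was Parp3, a PARP of double-strand breaks (1.74, 1.51 and 2.46 CPM against 3.53, 3.70, 2.96 and 3.66 CPM). The lower ones were Polq, the polymerase of microhomology-mediated joining (31.9, 20 and 24.1 CPM against 9.56, 6.49, 7.13 and 13.9 CPM, −1.45, SE 0.28), Rif1, a 53BP1 effector (135, 84.3 and 94.3 CPM against 50.3, 31.2, 40.2 and 62.8 CPM) and Trp53bp1, which encodes 53BP1 itself (−0.58, SE 0.19, and −0.26 with the length offset). The lower count was 6 without mouse 19 and 6 without mouse 30. Of 34 PARP and base excision repair genes 6 were lower (17.6%, not far above the 12.2% of all tested genes) and 0 higher, with a median of −0.074. The 6 were Parp11, a mono-ADP-ribosyl transferase (20, 15 and 22 CPM against 10.5, 5.68, 4.59 and 4.62 CPM), the interferon-inducible Parp12, the glycosylases Neil3 and Smug1, Apex2 and Parp2. Of the 34 genes, 28 met the rule in neither direction.

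Of 38 G2/M genes 9 were lower (23.7%, against 12.2% of all tested genes) and 1 higher (median −0.39). For this list the mean of mouse 30 (−0.14) lay above that of control mouse 17 (−0.18). Of 40 G1/S and replication genes 6 were lower (15%, near the 12.2% of all tested genes) and 0 higher (median −0.18). Here the list mean of mouse 30 (0.025) lay above that of control mouse 19 (−0.13). Ncapg2, a condensin II subunit, stood at 234, 170 and 177 CPM against 90.8, 48.9, 88.5 and 154 CPM (−1.02, SE 0.30), and Ncapg, of condensin I, at 187, 137 and 152 CPM against 109, 59.3, 76.8 and 118 CPM (−0.80, SE 0.23). The condensin subunit Ncapd2 and the mitotic genes Anln, Aspm, Aurka, Kif11, Kif20a and Ttk were the other lower ones. In contrast Cenpa, the histone variant of centromeres, stood at 93.5, 97.7 and 93.7 CPM against 146, 141, 114 and 113 CPM (0.43, SE 0.14). Mice 30 and 21 were again nearest to the controls in the condensin genes. The lower G2/M count was 21 without mouse 17, 17 without mouse 21 and 18 without mouse 30. The lower G1/S count was 16 without mouse 19 and 16 without mouse 30. Over all tested genes the lower count also rose, from 1427 to 2257 without mouse 17 and 2015 without mouse 21. It was 2248 without mouse 30 and 1768 without mouse 19.

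In the G1/S list Ccne2, a cyclin E that drives S phase entry, stood at 37.3, 27.0 and 25.2 CPM against 14.5, 9.07, 12.2 and 17.6 CPM (−1.16, SE 0.24). The others were Ccne1, the origin factors Mcm10, Cdc7, Cdc45 and Orc1. Of 26 D cyclin, CDK inhibitor and FOXO target genes 5 were higher (19.2%) and 2 lower (7.69%), against 12.2% of all tested genes in each direction. Fold changes were positive for 13 genes and negative for 13. The list means in the treated libraries (−0.01 to 0.12) lay within the control range (−0.13 to 0.14). Cdkn2d, which encodes the CDK4/6 inhibitor p19INK4d, stood at 22.1, 36.3 and 33.3 CPM against 56.5, 58.0, 71.8 and 74.0 CPM (1.09, SE 0.20), and Cdkn1c (p57KIP2) at 1.46, 1.02 and 1.5 CPM against 2.42, 2.43, 2.78 and 1.96 CPM. Cdkn1b (p27KIP1), the antiproliferative gene Btg1 and Klf6 were also higher. Cdk6, the kinase that D cyclins activate, stood at 776, 575 and 654 CPM against 437, 466, 475 and 520 CPM (−0.49, SE 0.14, and −0.18 with the length offset), and Irs2 was lower too. All 5 higher and both lower genes of this list kept their side under the length offset.

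Hypoxia targets and glycolytic enzymes leaned higher. Of 19 tested HIF target genes 5 were higher (26.3%, against 12.2% of all tested genes) and 1 lower, with a median of 0.47 (0.33 with the offset), and of 17 glycolysis enzymes 4 were higher (23.5%) and 1 lower, with a median of 0.30. Ddit4, a stress-induced inhibitor of mTORC1, stood at 26.2, 17.7 and 23.4 CPM in the controls, 31.1 and 36.8 CPM in mice 21 and 23, and 73.0 and 47.3 CPM in mice 28 and 30 (1.07, SE 0.28). Slc2a1, the glucose transporter GLUT1 (chromosome 4, 119108711 to 119137983), stood at 53.5, 44.8 and 46.3 CPM against 65.4, 73.4, 79.2 and 90.8 CPM (0.68, SE 0.16). Ankrd37, a small ankyrin protein induced by HIF, stood at 2.15, 2.44 and 1.89 CPM against 3.32, 3.09, 4.41 and 3.50 CPM (0.73, SE 0.30). In all 3 both ascorbate mice were above both mice labelled Tet2-restored, and the primary library, at 34.8, 82.6 and 3.44 CPM in that order, lay within the treated range. Bnip3, a mitophagy receptor, and Mxi1, a MYC antagonist, were also higher, whereas Plin2, the coat protein of lipid droplets, was lower (272, 222 and 247 CPM against 189, 110, 196 and 183 CPM). With the length offset Ddit4 (0.92) no longer met the rule, and 3 of the 5 genes were higher under both scalings. The HIF count was 8 without mice 23 and 28.

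The promoter windows of these 3 genes are shown because HIF binds a core of 5 letters, ACGTG, and each window holds it. The sequences are from RefSeq (GRCm38.p6), run 5′ to 3′ on the strand of the gene from 250 bases before to 50 bases after its start, and have the core in capitals. The windows are chr8:45999801-46000100 (minus strand) for Ankrd37, chr4:119108495-119108794 (plus strand) for Slc2a1 and chr10:59951721-59952020 (minus strand) for Ddit4.
Ankrd37: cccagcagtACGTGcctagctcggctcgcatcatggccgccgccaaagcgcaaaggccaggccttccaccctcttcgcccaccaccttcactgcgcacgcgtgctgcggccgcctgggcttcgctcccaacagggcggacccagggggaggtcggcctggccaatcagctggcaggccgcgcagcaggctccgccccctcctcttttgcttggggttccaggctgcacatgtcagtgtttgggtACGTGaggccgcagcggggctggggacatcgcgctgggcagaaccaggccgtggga
Slc2a1: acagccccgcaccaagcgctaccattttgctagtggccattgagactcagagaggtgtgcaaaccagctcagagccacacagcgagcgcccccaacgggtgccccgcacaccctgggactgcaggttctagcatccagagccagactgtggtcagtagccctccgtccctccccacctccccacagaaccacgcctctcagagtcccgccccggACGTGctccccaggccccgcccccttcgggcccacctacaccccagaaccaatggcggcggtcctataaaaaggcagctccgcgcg
Ddit4: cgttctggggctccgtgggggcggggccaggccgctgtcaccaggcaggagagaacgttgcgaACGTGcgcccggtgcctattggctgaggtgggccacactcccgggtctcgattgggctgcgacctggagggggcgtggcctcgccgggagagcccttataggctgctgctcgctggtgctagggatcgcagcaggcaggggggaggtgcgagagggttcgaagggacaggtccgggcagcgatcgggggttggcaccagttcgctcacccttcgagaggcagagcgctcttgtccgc
Ankrd37 holds 2 matches and the other 2 genes 1 each. On either strand the core was present in 26.9% of the 8510 tested genes with a window, in 26.4% of the higher and in 27.1% of the lower genes, so a match is common and describes the window only.

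In glycolysis, Aldoc, an aldolase, stood at 9.84, 16.9 and 12.4 CPM against 45.3, 66.4, 35.4 and 22.9 CPM (1.70, SE 0.34). Here both mice labelled Tet2-restored were above both ascorbate mice, the reverse of Slc2a1. The main aldolase Aldoa stood at 612, 807 and 711 CPM against 851, 974, 1236 and 1244 CPM (0.60, SE 0.17), and enolase Eno1 at 122, 146 and 154 CPM against 180, 284, 238 and 258 CPM (0.77, SE 0.17). Lactate dehydrogenase Ldha was the fourth higher enzyme, and Pfkm, a phosphofructokinase, was lower (152, 136 and 145 CPM against 107, 82.5, 97.9 and 110 CPM). Without mouse 21, 7 enzymes were higher. Ankrd37, Slc2a1, Aldoa and Pfkm share exonic bases with a neighbouring gene.

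Chaperone genes of the heat shock response leaned lower. Of 21 tested genes 8 were lower (38.1%, against 12.2% of all tested genes) and 1 higher, with a median of −0.33 under both scalings, and the same 8 were lower under both. Hspa1b, the inducible HSP70, stood at 6.52, 28.4 and 14.9 CPM against 4.68, 1.42, 1.09 and 1.96 CPM (−2.84, SE 0.56). Its control values ranged widely and the primary library, at 55.1 CPM, was the highest. Hsph1 (HSP110) stood at 145, 102 and 130 CPM against 45.7, 20.7, 39.0 and 74.8 CPM (−1.48, SE 0.34), and Hspa4l, of the same family, at 257, 149 and 158 CPM against 72.1, 49.3, 95.3 and 93.0 CPM (−1.28, SE 0.25). The HSP90 gene Hsp90aa1, the HSP40 genes Dnaja1 and Dnajb1, the mitochondrial Hspd1 and Hspa5 of the endoplasmic reticulum were the others, and Dnajb6 was higher. Without mouse 30 the lower count was 13.

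Stress and interferon lists held lower shares not far above the 12.2% of all tested genes. Of 29 genes of ATF4 and amino acid stress 5 were lower (17.2%) and 1 higher (median −0.16), and the list mean of mouse 30 (0.07) lay within the control range. Eif2ak2, which encodes the double-stranded RNA sensor PKR, stood at 159, 130 and 167 CPM against 71.8, 59.1, 86.7 and 76.5 CPM (−1.05, SE 0.16), and Eif2ak4, the amino acid sensor GCN2, at 52.1, 48.9 and 43.7 CPM against 25.1, 20.7, 19.4 and 34.7 CPM. Chac1, a glutathione-degrading enzyme induced by ATF4, stood at 1.3, 1.14 and 0.643 CPM in the controls, and at 0 in mice 21, 23 and 28 and 0.083 CPM in mouse 30. At such low counts no fold is given. Ddit3, the stress factor CHOP, was the higher gene, at 26.8, 27.9 and 22.8 CPM against 45.6, 53.3, 38.4 and 46.7 CPM (0.83, SE 0.16). Both kinases phosphorylate eIF2α, upstream of ATF4 and of Ddit3. Of 43 type I interferon genes 8 were lower (18.6%) and 0 higher (median −0.33), and the list means of mice 21, 23 and 28 (−0.18, −0.25 and −0.15) lay within the control range (−0.27 to 0.35). The 8 were Herc6, Trim30a, Trim25, Samd9l, the RNA editor Adar, the sensor Ifih1, and Oas3 and Oasl2. Trim30a stood at 208, 172 and 253 CPM against 141, 130, 120 and 86.4 CPM (−0.82, SE 0.19), with 29.3 CPM in the primary library. The lower ATF4 count was 8 without mouse 16 and 13 without mouse 30, and the interferon count was 14 without mouse 16, 13 without mouse 17 and 14 without mice 23 and 28.

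Of 22 NF-kB target genes 6 were higher (27.3%, against 12.2% of all tested genes) and 2 lower (median 0.26), and with the length offset 4 and 3. The list mean of mouse 30 (−0.015) lay within the control range (−0.067 to 0.083). Traf1, a signalling adaptor of TNF receptors, stood at 3.76, 4.84 and 4.11 CPM against 7.35, 13.7, 9.54 and 8.66 CPM (1.21, SE 0.28). Icam1, a ligand of leukocyte integrins, stood at 27.4, 30.2 and 34 CPM against 44.4, 44.8, 55.7 and 60 CPM (0.75, SE 0.17), and Tnip1, a brake on NF-kB, at 46.5, 52.0 and 54.0 CPM against 73.4, 88.1, 83.8 and 74.1 CPM (0.65, SE 0.14). The inhibitor Nfkbia, the subunit Rela and Bcl3 were higher and the cytokine Il1b and the inhibitor Nfkbie lower, and 4 were lower without mouse 19. In immediate early genes 1 of 19 was lower, Fosb of the AP-1 family, at 45.7, 107 and 117 CPM against 43.5, 21.4, 19.3 and 9.08 CPM. Its nearest values, 45.7 and 43.5 CPM, barely separated.

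**Figure D3:**
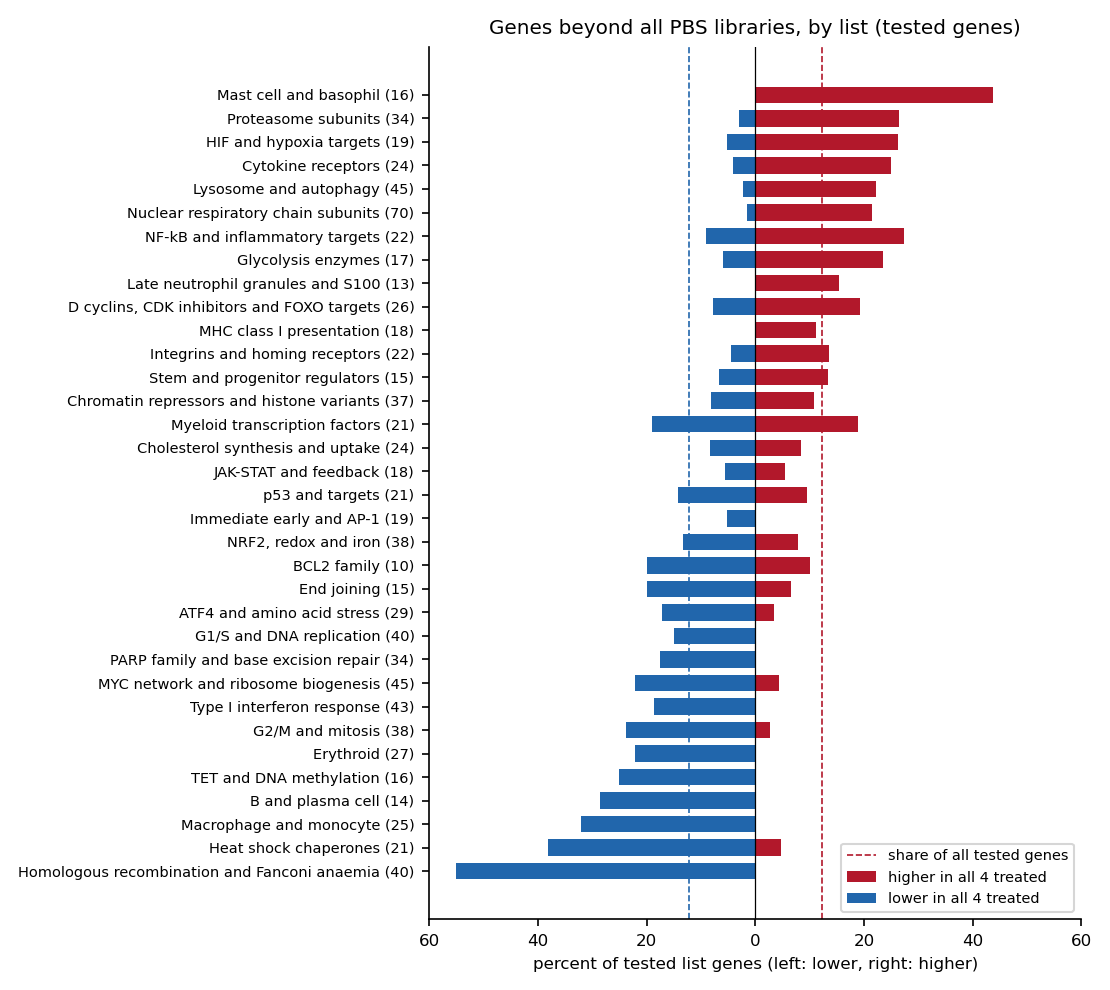
Percent of each list's tested genes (x axis) that were higher (red, right) or lower (blue, left) in all 4 treated libraries, for lists with at least 10 tested genes (number in brackets), with dashed lines at the 12.2% of all tested genes in each direction. Homologous recombination and Fanconi anaemia reaches 55.0% on the lower side and mast cell and basophil genes 43.8% on the higher side.

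Of 38 NRF2, redox and iron genes 3 were higher (7.89%) and 5 lower (13.2%), shares at or below about the 12.2% of all tested genes (median 0.098). Tfrc, the transferrin receptor by which cells take up iron, stood at 798, 524 and 416 CPM against 208, 92.3, 104 and 345 CPM (−1.63, SE 0.44). Mouse 30 was close to the controls and mice 23 and 28 farthest from them. The others were Hmox1 and Slc40a1, which the macrophage list also holds, the ferrireductase Steap3 and Gclm of glutathione synthesis. The peroxiredoxin Prdx5 (0.55, SE 0.18), the superoxide dismutase Sod1 and the NRF2 inhibitor Keap1 were higher. Sod1 stood at 246, 270 and 256 CPM against 275, 348, 342 and 293 CPM (0.29, SE 0.13) and at −0.04 on the log2 scale with the length offset, a change of sign. The lower count was 8 without mouse 30, and the higher count 9 without mouse 17 and 7 without mouse 23.

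Of 70 nuclear genes of the respiratory chain 15 were higher (21.4%, against 12.2% of all tested genes) and 1, Sdha, lower (median 0.20), but with the length offset 7 were higher and 8 lower (median 0.071). The higher count was 42 without mouse 17, 27 without mouse 30 and 9 with library totals in place of TMM. Over all tested genes it was 2310, 2113 and 1129 in these settings, against 1430 in the main setting. Ndufs4, a complex I subunit, stood at 48.7, 50.3 and 52.6 CPM against 66.0, 80.6, 75.4 and 60.5 CPM (0.48, SE 0.15). Of 34 proteasome subunits 9 were higher (26.5%) and 1, Psmc6, lower (median 0.11), 4 higher with the offset and 15 without mouse 17. Psmb8, a subunit of the immunoproteasome, stood at 93.7, 130 and 133 CPM against 184, 195, 189 and 145 CPM (0.58, SE 0.17), and Psmd8, of the lid, at 293, 370 and 324 CPM against 403, 495, 475 and 465 CPM. None of the 7 tested mRNAs encoded by the mitochondrial genome met the rule, although the share of mitochondrial counts was highest in mice 23 and 28.

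Of 45 lysosome and autophagy genes 10 were higher (22.2%, against 12.2% of all tested genes) and 1 lower (median 0.14). With the offset 12 were higher and 0 lower (median 0.25), and 7 of the 10 were higher under both scalings. The list means of the treated libraries (−0.06 to 0.23) overlapped those of the controls (−0.05 to 0.03). Npc2, which hands cholesterol out of lysosomes, stood at 186, 183 and 188 CPM against 247, 266, 282 and 259 CPM (0.50, SE 0.12). Its controls lay close together and the nearest treated value, that of mouse 21, was well clear of them. Gabarap, a membrane tag of autophagosomes, stood at 334, 349 and 337 CPM against 444, 543, 514 and 439 CPM (0.51, SE 0.13), and Atg7, the enzyme that activates such tags, at 24.4, 30.6 and 28.0 CPM against 42.9, 40.5, 44.0 and 36.9 CPM (0.57, SE 0.15). The cargo receptor Sqstm1, Map1lc3b, the proton pump genes Atp6ap1 and Atp6v0d1, and the proteases Ctsa and Ctsz were among the others. Wipi2, which acts early in autophagosome formation, was lower (−0.43, SE 0.14, and −0.16 with the offset). Without mouse 21, 18 of the list were higher.

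Of 21 lineage transcription factors 4 were higher and 4 lower (19% each, against 12.2% of all tested genes in each direction). With the length offset 4 were higher and 3 lower, and 4 higher and 2 lower genes met the rule under both scalings. Spi1, which encodes PU.1, the master factor of myeloid cells (chromosome 2, 91082390 to 91115756), stood at 64.7, 91.7 and 84.8 CPM against 138, 178, 151 and 137 CPM (0.91, SE 0.17). With Runx1 and Runx1t1, the ETS factor Fli1 was higher. Irf8, the factor of monocytes and dendritic cells, stood at 1.86, 1.63 and 2.68 CPM against 1.23, 0.659, 0.483 and 0.874 CPM (−1.32, SE 0.41), and Cebpg at 105, 67.0 and 84.8 CPM against 48.0, 23.6, 35.6 and 53.3 CPM (−1.09, SE 0.26). Cbfa2t3, which encodes ETO2, a relative of the Runx1t1 product, stood at 122, 125 and 127 CPM against 114, 78.4, 66.6 and 54.9 CPM (−0.67, SE 0.22), and Myb was the fourth lower factor. Without mouse 21, 9 of the list were lower. Among 15 stem cell regulators Hoxb3 and its neighbour Hoxb4 were higher (13.3%, near the 12.2% of all tested genes). Hoxb4 stood at 5.79, 6.27 and 6.71 CPM against 8.41, 12.9, 14.6 and 11.8 CPM (0.93, SE 0.25). Ly6a, the SCA-1 antigen, was lower (6.67%), at under 1 CPM in every library.

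Of 24 tested cytokine receptors 6 were higher (25%, against 12.2% of all tested genes) and 1 lower (median 0.33), and the list means of treated and control libraries overlapped. Tgfbr2, the ligand-binding chain for TGF-β, stood at 51.3, 21.2 and 37.5 CPM against 58.5, 101, 88.3 and 83.3 CPM (1.17, SE 0.28). Its partner Tgfbr1 was the lower one, at 1.21, 1.10 and 2 CPM against 1.03, 0.101, 0.181 and 0.333 CPM. The nearest values of Tgfbr1, 1.10 and 1.03 CPM, barely separated, and with the length offset it no longer met the rule. Il20rb, a chain of the receptors for IL-20 cytokines, stood at 1.17, 1.55 and 0.535 CPM against 1.93, 4.66, 7.91 and 7.74 CPM (2.35, SE 0.55). Eng, the coreceptor endoglin, stood at 2.67, 3.78 and 2.82 CPM against 5.95, 4.66, 33.9 and 6.62 CPM, and its log2 fold change of 2.04 (SE 0.69) was 0.90 without mouse 28. Csf2ra, Ifngr2 and Il17ra were also higher. Of 22 integrin and homing genes, a list with a median of −0.23, Fn1, Itga2b and the chemokine receptor Ccr1 were higher (13.6%, near the share of all tested genes), and Itga6, a laminin receptor chain, was lower (193, 149 and 174 CPM against 108, 122, 128 and 108 CPM, −0.56, SE 0.14).

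Cell death genes were few. Of 21 p53 targets 2 were higher (9.52%) and 3 lower (14.3%), and of 10 BCL2 family genes 1 was higher and 2 lower, against 12.2% of all tested genes in each direction. Bbc3, the killer protein PUMA, stood at 19.2, 24.5 and 15.8 CPM in the controls, 31.3 and 40.6 CPM in mice 21 and 23, and 73.7 and 74.1 CPM in mice 28 and 30 (1.47, SE 0.31). The controls, the mice labelled Tet2-restored and the ascorbate mice formed 3 separate steps. Bax, a pore-forming protein of mitochondria, stood at 44.8, 67.5 and 59.6 CPM against 78.8, 68.6, 96.6 and 76.5 CPM (0.48, SE 0.18), and its relative Bak1 at 211, 220 and 226 CPM against 235, 261, 295 and 292 CPM (0.31, SE 0.13). With the length offset the values were 0.33 for Bax and 0.23 for Bak1. Bcl2l11, which encodes BIM, was low throughout, at 2.55, 0.814 and 0.571 CPM against 0.164, 0.203, 0.483 and 0.416 CPM (−2.05, SE 0.61, and −1.14 without mouse 16). Aen, Zmat3, Rrm2b and Bid were the other lower genes, and 6 p53 targets were lower without mouse 17. Bax, Bak1, Bcl2l11, Zmat3 and Rrm2b no longer met the rule with the length offset.

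Of 45 genes of the MYC network and ribosome biogenesis 10 were lower (22.2%, against 12.2% of all tested genes) and 2 higher (median −0.16), and 18 were lower without mouse 21. Tsr1, a maturation factor of the small subunit, stood at 96.0, 80.9 and 79.6 CPM against 55.0, 48.4, 39.0 and 62.3 CPM (−0.74, SE 0.17), and Mga, a MAX partner, at 98.5, 57.4 and 65.0 CPM against 39.2, 35.5, 32.4 and 45.9 CPM (−0.94, SE 0.20, and −0.60 with the length offset). The MYC partner Max was higher by 0.24 (SE 0.12), at 288, 305 and 298 CPM against 331, 380, 350 and 345 CPM.

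Chromatin, signalling, lipid and MHC class I lists lay near or under the 12.2% of all tested genes in each direction. Of 37 chromatin genes 4 were higher (10.8%), among them the histone variants H2afy (0.51, SE 0.14) and H3f3a (0.30, SE 0.13). The 3 lower genes (8.11%) were the Polycomb partners Mtf2 (−0.96, SE 0.24) and Kdm2b (−0.61, SE 0.20) and the methyltransferase Kmt2a. The −0.42 (SE 0.17) of Kmt2a was −0.089 with the length offset. The lower count was 10 without mouse 30, 8 without mouse 17 and 5 without mouse 16, 19 or 23. Of 18 JAK-STAT genes Stat5a was higher (0.29, SE 0.12) and its feedback inhibitor Socs2 lower (−0.49, SE 0.15, and −0.23 with the offset), 5.56% in each direction. Of 24 cholesterol genes the regulators Srebf2 (0.32, SE 0.13) and Srebf1 (0.39, SE 0.14) were higher (8.33%). The exporter Abca1 (−1.34, SE 0.44) and Acat2 (−0.58, SE 0.23) were lower (8.33%), with 4 lower without mouse 17 and 7 without mouse 21. Of 18 MHC class I genes Psmb8 and the peptide transporter chain Tap2 (0.42, SE 0.15) were higher (11.1%) and 0 lower. The higher count was 4 without mouse 17 and 8 without mouse 30, settings in which 2310 and 2113 of all tested genes were higher.

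**Figure D4:**
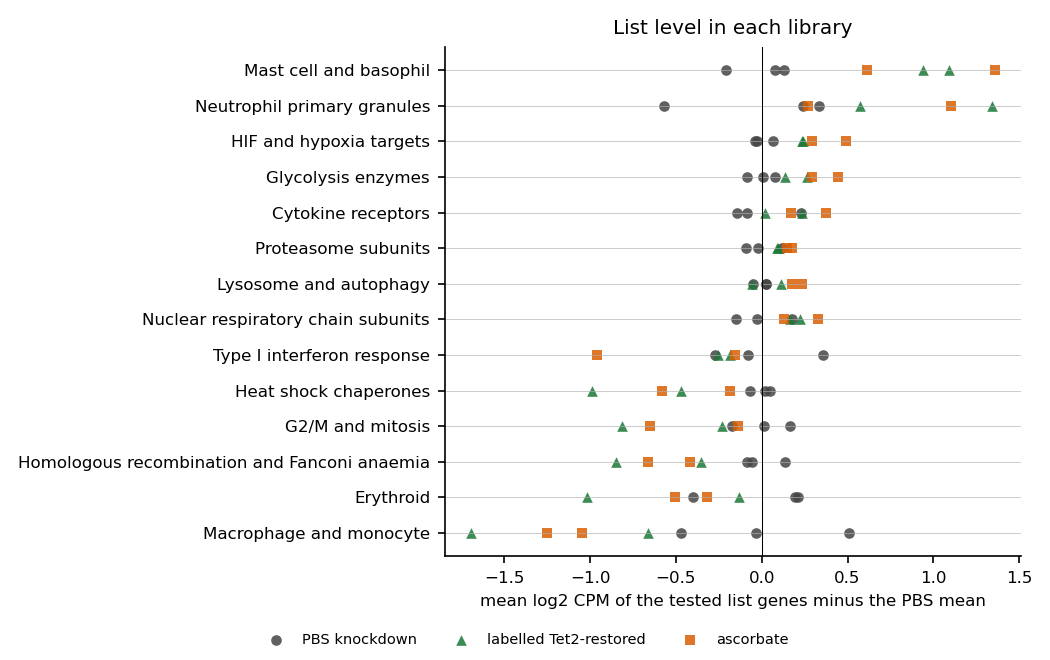
Mean log2 CPM of the tested genes of 14 lists minus the mean of the 3 PBS libraries (x axis), 1 symbol per library: PBS knockdown (3 mice), labelled Tet2-restored (2 mice) and ascorbate (2 mice). The treated libraries lie below all controls for homologous recombination and Fanconi anaemia (−0.36 to −0.85). They lie above all controls for mast cell and basophil genes (0.61 to 1.36). They overlap the controls for cytokine receptors and for interferon, G2/M, erythroid, primary granule, proteasome, respiratory chain and lysosome genes. The means include genes chosen by the rule, which partly fixes any separation.

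Whether the treatment groups differ from each other is a comparison that the rule did not make, although the rule keeps genes whose 4 treated values lie together. Labelled Tet2-restored minus ascorbate was fitted over 12137 genes with edgeR, and 1 gene passed an adjusted p of 0.05 (0.00824%), with 16.2% at an unadjusted p under 0.05. None of the 2857 genes passed, with 251 (8.79%) at an unadjusted p under 0.05, and 40 of them passed with DESeq2 and 0 with limma voom. Groups of 2 mice give this comparison little power, so the count does not show that the treatments act alike. The median size of the difference was 0.17 log2 units in the higher and 0.23 in the lower genes, against 0.29 in all tested genes. Of these sets 3.29% and 4.41% differed by over 1 log2 unit, against 8.13% of all. The rule favours genes whose 4 treated values lie together, so the smaller sizes and shares of the members are partly built in.

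**Figure D5:**
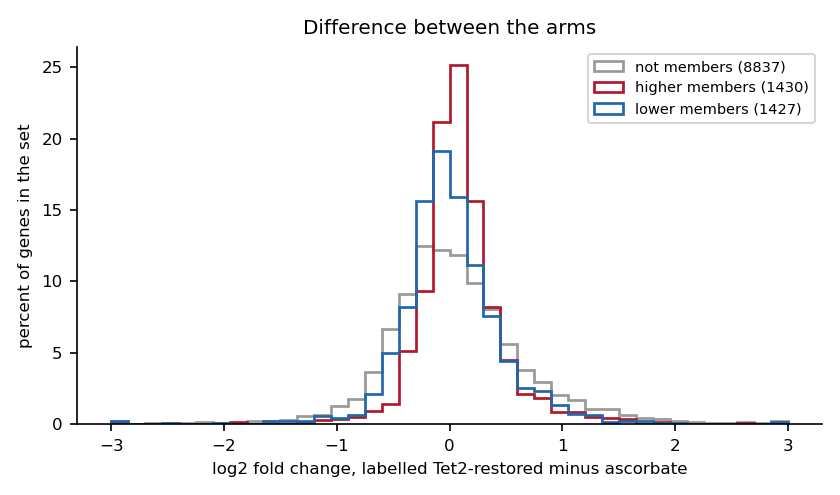
Distribution of the log2 fold change between the libraries labelled Tet2-restored and those given ascorbate (x axis; values beyond 3 are drawn at the ends) as a percent of each set (y axis): 1430 higher, 1427 lower and 8837 other tested genes. The higher and lower sets are narrower than the other genes, with median sizes of 0.17 and 0.23 against 0.33.

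Among the 2857 genes, Jrk and Avil are given as examples with a small p in that comparison, picked after their values were seen. Jrk, a DNA-binding protein gene, stood at 6.76, 7.24 and 7.25 CPM in the controls, 6.11 and 3.35 CPM in mice 21 and 23, and 0.362 and 0.375 CPM in mice 28 and 30, and the treatment groups differed by 3.66 log2 units (SE 0.43, edgeR adjusted p 0.0565). Avil, the actin-binding protein advillin, stood at 0.648, 0.773 and 0.464 CPM in the controls, 2.26 and 1.27 CPM in mice 21 and 23, and 10.9 and 18.7 CPM in mice 28 and 30 (−3.06, SE 0.44, edgeR adjusted p 0.0700). Ascorbate libraries were the more displaced in both. For Bbc3 the difference was −1.04 (SE 0.23), for Ddit4 −0.83 (SE 0.26) and for Slx4 0.86 (SE 0.22). None of these passed after adjustment in the main edgeR fit. With DESeq2, Jrk and Avil (adjusted p 7.44e-08 for each) and Bbc3 (0.0048) passed. With limma voom they did not (adjusted p 0.185, 0.200 and 0.270). In edgeR Jrk also passed with the length offset (adjusted p 0.0359) and with all 8 libraries (0.0480).

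Sequence features of the promoters are given as a description. A RefSeq window was found for 8510 of the 11694 tested genes, 1016 of them higher and 1115 lower. The median ratio of observed to expected CpG was 0.749 in higher, 0.818 in lower and 0.784 in all tested genes, and 21.3%, 13.9% and 17.9% had a ratio under 0.5. The E2F motif TTTCCCG on either strand was found in 6.00% of higher, 8.61% of lower and 6.44% of all windows, the ATF and CRE motif TGACGT in 11.7%, 14.6% and 12.8%, and the GATA motif AGATAA in 7.28%, 6.28% and 6.70%.

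A pair of windows illustrates the ends of that range, the mast cell gene Cpa3 (chr3:20242132-20242431, minus strand) with 3 CpG and a GATA match in capitals, and the repair gene Topbp1 (chr9:103305077-103305376, plus strand) with 38 CpG and an E2F match in capitals, on the reverse strand as CGGGAAA.
Cpa3: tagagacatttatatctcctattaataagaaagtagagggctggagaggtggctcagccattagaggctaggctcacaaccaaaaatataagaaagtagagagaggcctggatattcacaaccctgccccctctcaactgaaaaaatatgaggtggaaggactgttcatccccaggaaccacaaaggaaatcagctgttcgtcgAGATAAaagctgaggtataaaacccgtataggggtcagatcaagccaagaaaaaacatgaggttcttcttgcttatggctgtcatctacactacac
Topbp1: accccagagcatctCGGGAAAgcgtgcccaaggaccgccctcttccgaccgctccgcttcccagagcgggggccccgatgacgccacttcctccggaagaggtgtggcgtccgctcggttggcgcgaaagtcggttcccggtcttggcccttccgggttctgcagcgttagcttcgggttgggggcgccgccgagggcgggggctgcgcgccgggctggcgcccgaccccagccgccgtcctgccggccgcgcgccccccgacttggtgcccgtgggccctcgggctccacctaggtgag
The Cpa3 window is 43.3% G and C and the Topbp1 window 73.7%. A match describes the letters of the window and says nothing of binding in these cells.

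At its edge the rule separates genes that hardly differ. Just inside were H13 (control 166, 214 and 197 CPM against 245, 302, 248 and 214 CPM) and Rbm17 on the higher side and Prkci (14.7, 12.5 and 13.7 CPM against 7.84, 4.82, 7.13 and 12.5 CPM) and Nrd1 on the lower. Just outside were Mical1 (25.5, 38.7 and 27.6 CPM against 38.7, 78.7, 54.8 and 47.7 CPM), Cops8, Tmem18 and Slc39a8. Mical1 had a log2 fold change of 0.85 and Rbm17 of 0.13, so a gene outside the rule could have a larger mean difference than a gene inside it.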

How the data were processed

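RNA-seq of poly(A) RNA from 8 libraries (7 used by the rule) was analysed from 2 tables. The deposited count table held raw counts for each symbol, and a further deposited table held FPKM values for the same libraries. STAR, featureCounts and DESeq2 with mm10 (GRCm38) are named, per the submitters' processing notes; versions, settings and strand are not given in the sources used here. As deposited, 26 symbols had become calendar dates and 2 repeated symbols were given distinct names. Transcript length was recovered from the ratio of the deposited count to the deposited FPKM, and lay within 1% of the merged exon length in GENCODE vM21 for 86.7% of genes. GENCODE vM21, which held 97.8% of the tested symbols, gave coordinates and overlaps, and RefSeq (GRCm38.p6) gave promoters.

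Counts were filtered with filterByExpr (minimum count 10) and scaled by TMM. Log2 fold changes and SE are those of edgeR 4.0.16 (R 4.3.3, quasi-likelihood test, robust fit, Benjamini-Hochberg adjustment over all tested genes, threshold 0.05), with 7 libraries in 2 groups, or in 3 groups for the difference between treatments. CPM are counts relative to the TMM-scaled total. Log2 CPM carried a prior count of 0.5. The length offset was a loess curve (span 0.5) per library. The code was tested on simulated data. Alternatives were other scalings, filters, DESeq2 1.42.0, limma 3.58.1 (voom, and trend on log2(FPKM + 0.1) or log2(FPKM + 1)), all 8 or only the 4 treated libraries, and each library left out.

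The members, the 39 gene lists (1113 genes) and the tests were chosen with earlier results of these data known, so no list was tested. Named with values are Tet1, Tet2, Tet3, Runx1 and Runx1t1, the 12 genes per direction with the largest gap among those averaging 5 CPM or more on their high side (no predicted, clone-named, pseudogene or receptor-segment loci), up to 3 genes per direction from each list, members past the threshold between treatments, and the 2 genes nearest the rule's edge on each side. Of these 155 genes, 58 share exonic bases with a neighbour. Other list members are named without a test, some genes that the counts include are not reported here by name, and Fcer1a, Jrk and Avil were chosen after their values were seen. P-values measure the spread between mice within the groups of each fit. In the pooled fit that spread also holds differences between the 2 treatments. In the comparison of treatments the spread is estimated over all 3 groups, the controls included.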

Additional observations from a re-analysis of the deposited data

Results flagged for a closer look

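H1f0, which encodes the linker histone H1.0 of non-dividing cells, differed between the libraries labelled Tet2-restored and the ascorbate libraries by the test of that difference itself, and is outside the 2857 genes because the treatments lay on opposite sides of the controls. It stood at 53.8, 68.1 and 65.3 CPM in mice 16, 17 and 19, 167 and 276 CPM in mice 21 and 23, and 38.4 and 36.8 CPM in mice 28 and 30. The difference was 2.56 log2 units (SE 0.25, edgeR adjusted p 0.0222). Over the alternatives the difference ran from 2.15 to 2.87. The call was lost when mouse 17 (edgeR adjusted p 0.0524), mouse 28 (0.101), mouse 30 (0.113) or both mice 23 and 28 (0.147) were left out, and with only the 4 treated libraries (0.0757).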

How the results depend on the processing

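With a gap of at least 0.25 log2 units the rule took 400 higher and 435 lower genes, and when single libraries were left out it took 1616 to 2310 higher and 1554 to 2257 lower genes. Scaling by library totals gave 1129 and 1632, by upper quartiles 1490 and 1315, and the deposited FPKM 1309 and 1509. The pooled count of 198 was 44 with library totals, 1086 without a filter on low counts, 369 with a mean of at least 5 CPM, 1603 with DESeq2, 2491 with limma voom and 0 to 1226 with single libraries left out. The count of 1 between treatments was 582 without a filter, 444 with DESeq2, 3 with the length offset, with limma-trend on log2(FPKM + 0.1) or log2(FPKM + 1) and with all 8 libraries, 0 in edgeR with only the 4 treated libraries (1381 at an unadjusted p under 0.05), and 0 to 5 with single libraries left out. It was 0 without mouse 17 or mouse 28 (1839 and 1973 at an unadjusted p under 0.05), and the 1 call without mouse 30 was another gene than H1f0. Without mice 23 and 28, an alternative chosen after seeing the data, edgeR called 0 in the pooled contrast and 0 between treatments (1472 and 1973 at an unadjusted p under 0.05). The cause of these differences was not tested. Sod1 changed sign with the length offset (−0.039). Of the named log2 fold changes, 32 alternatives moved by more than the spread between replicates and 1802 did not. No paired analysis was possible because the groups share no mouse numbers. Depth limits genes near the filter's cutoff of 0.416 CPM.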

Other observations

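Gene families grouped by symbol, chosen after the data were examined, add to the lists. Of 80 tested genes of cytosolic ribosomal proteins 40 were higher in all 4 treated libraries (50%, against 12.2% of all tested genes) and 0 lower, with a median log2 fold change of 0.38. With the length offset 25 were higher and 2 lower and the median was 0.23, and the family's median transcript length was 1755 bases. Of 77 mitochondrial ribosomal protein genes 11 were higher (14.3%) and 4 lower (5.19%), with a median of 0.11 (0.033 with the offset). Of 267 zinc finger genes with the prefix Zfp, whose products are mostly DNA-binding repressors, 53 were lower (19.9%) and 18 higher, and with the offset 43 and 21. Of 177 solute carriers 20 were higher (11.3%) and 29 lower (16.4%), not far from the 12.2% of all tested genes. By chromosome, the higher share was 16.5% on chromosome 17 and 16.0% on chromosome 7, and the lower share ran from 9.24% on chromosome 7 to 15.4% on chromosome 9.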
